A study of Mus musculus with 6 samples.

Results

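Transcripts of 10 genes of glutamate and GABA signalling were followed in mouse pancreatic islets, in animals with and without a deletion of the transcription factor gene Klf4 directed to alpha cells. The genes were taken by symbol: the synthesis enzymes Gad1 and Gad2, the vesicular transporters Slc17a6 and Slc32a1, the glutamate receptor genes Gria2, Gria3, Grik2 and Grm4, and the GABA-B receptor subunits Gabbr1 and Gabbr2. All 10 were found among the 55536 genes of the count table. Polyadenylated RNA of whole islets came from 3 control libraries (Klf4+/+;Gcg-iCre) and 3 knockout libraries (Klf4fl/fl;Gcg-iCre), of mice described as C57B1/6J. Both genotypes carried Gcg-iCre, a Cre recombinase expressed from the glucagon gene. Age and sex were not given in the sources used here. Values are listed below in the order of replicates 1, 2 and 3.

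Glutamate and GABA are the main excitatory and inhibitory transmitters of the brain, and islet cells use both outside the nervous system. GABA is made from glutamate by the decarboxylases GAD67 (Gad1) and GAD65 (Gad2), and in islets mainly in beta cells. The vesicular transporters VGLUT2 (Slc17a6) and VGAT (Slc32a1) load glutamate and GABA into secretory vesicles. Glutamate acts on ion-channel receptors of the AMPA (Gria genes), kainate (Grik genes) and NMDA (Grin genes) classes and on metabotropic, G-protein-coupled receptors (Grm genes). GABA acts on the GABA-A chloride channels and on the GABA-B receptor, an obligate pair of the Gabbr1 and Gabbr2 products.

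Promoter windows of the genes that make GABA and load it into vesicles are shown here, because these genes ran from the highest level of the 10 to no count at all. Each window spans 250 bases before to 50 bases after a RefSeq transcription start on GRCm38.p6. Capitals mark CACCC or its reverse complement GGGTG, a core of the sequence that KLF factors bind. Gad1 is shown at chr2:70561879-70562178, Gad2 at chr2:22622077-22622376 and Slc32a1 at chr2:158610508-158610807, all on the plus strand.
Gad1: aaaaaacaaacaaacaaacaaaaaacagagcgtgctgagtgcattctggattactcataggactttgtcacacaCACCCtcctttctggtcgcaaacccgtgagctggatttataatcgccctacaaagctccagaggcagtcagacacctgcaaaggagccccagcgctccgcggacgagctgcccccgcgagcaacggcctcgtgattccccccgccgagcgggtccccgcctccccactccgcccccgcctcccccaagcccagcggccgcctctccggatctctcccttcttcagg
Gad2: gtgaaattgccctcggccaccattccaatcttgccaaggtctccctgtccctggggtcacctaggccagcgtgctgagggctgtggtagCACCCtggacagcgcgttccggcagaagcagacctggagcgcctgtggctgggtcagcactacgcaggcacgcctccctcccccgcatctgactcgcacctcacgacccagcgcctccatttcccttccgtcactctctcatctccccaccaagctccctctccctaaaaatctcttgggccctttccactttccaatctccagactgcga
Slc32a1: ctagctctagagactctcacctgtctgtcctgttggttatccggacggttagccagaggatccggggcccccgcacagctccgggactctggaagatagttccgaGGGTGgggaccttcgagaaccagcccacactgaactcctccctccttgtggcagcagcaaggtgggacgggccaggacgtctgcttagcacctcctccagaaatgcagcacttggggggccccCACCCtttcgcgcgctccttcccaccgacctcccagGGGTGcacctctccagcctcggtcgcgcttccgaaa
The Gad1 and Gad2 windows held 1 match each and the Slc32a1 window held 3. At least 1 match was present in 57.5% of the 32851 RefSeq promoter windows of the same length. The Gad1 match was also the end of the longer word CACACCC, which overlaps CACCC and is held on either strand by 8.0% of all windows. The windows held 21 (Gad1), 14 (Gad2) and 17 (Slc32a1) CpG dinucleotides, against a median of 7 over all windows. RefSeq windows were found for 8 of the 10 genes, and not for Gria3 and Grm4.

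Library totals ran from 101277200 to 110243918 counts. The islet hormones were present in every library, with Gcg at 2.74% to 5.37% and Ins1 and Ins2 together at 16.8% to 18.6% of the counts. Klf4 was at 3148, 2879 and 2015 normalized counts in the controls and 2340, 2540 and 2277 in the knockouts, and did not pass (log2 fold change -0.17 ± 0.15 SE, DESeq2 adjusted p = 0.774) except without control replicate 3 (-0.34, adjusted p = 0.00568). Xist was at 77938 to 108105 normalized counts in the controls and at 12.4 to 30.2 in the knockouts, while the Y-linked Ddx3y had no count in the controls and 5599 to 6265 normalized counts in the knockouts. In every comparison that follows, an effect of sex and an effect of genotype cannot be told apart. Knockout replicate 1 stood apart, at 62.5 on the first principal component, where the controls lay from -25.8 to -24.3 and the other knockouts at 20.2 and -7. In bulk RNA, fewer cells of a type and less RNA per cell cannot be told apart.

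The 10 transcripts fell into a high, a middle and a near-absent tier. Levels are compared here as normalized counts per kilobase of annotated exon, averaged over all 6 libraries. Gad1 stood highest at 1867, followed by Gabbr2 at 1261, Gabbr1 at 747, Gria2 at 460 and Gria3 at 366. Grik2 was at 17.1, 21.4-fold below Gria3. Grm4, Gad2 and Slc17a6 were at 2.85, 2.43 and 0.985, and Slc32a1 had no count in any library. The ranges of neighbours in this order did not overlap between Gad1 and Gabbr2, Gabbr2 and Gabbr1, Gria3 and Grik2, or Grik2 and Grm4. They overlapped between Gabbr1 and Gria2, although Gabbr1 was the higher in 6 of 6 libraries. Gria2 and Gria3, Grm4 and Gad2, and Gad2 and Slc17a6 also had overlapping ranges.

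**Figure D1:**
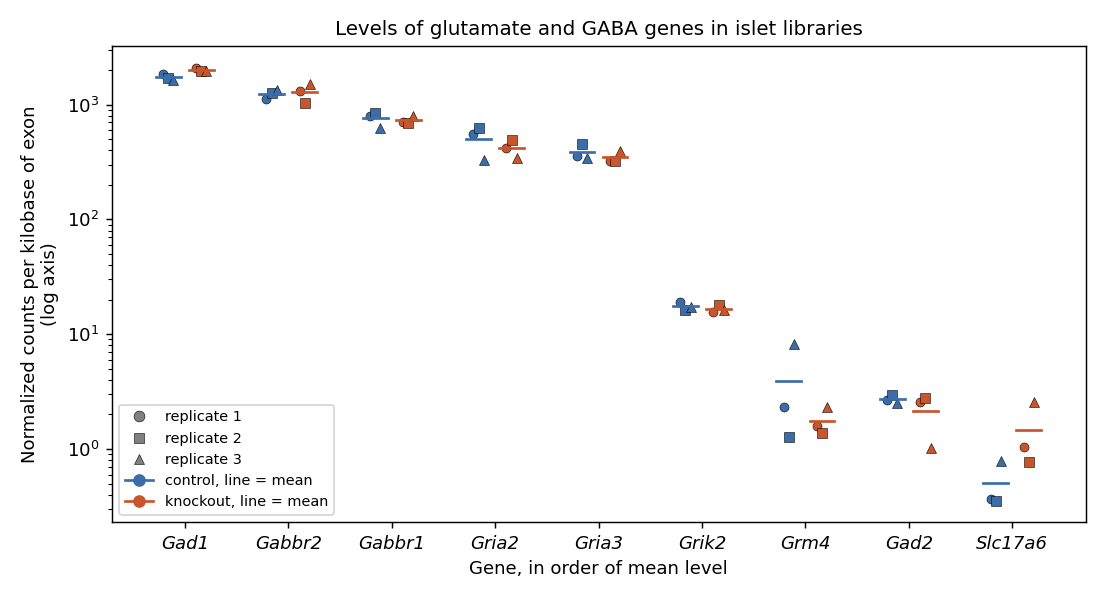
Normalized counts per kilobase of exon (log axis) of 9 of the 10 genes in each of 6 islet libraries, with control libraries in blue, knockout libraries in orange, symbols for replicates and lines for group means. The 5 highest genes lie between 322 (Gria3) and 2102 (Gad1), Grik2 lies between 15.5 and 19.1, and Grm4, Gad2 and Slc17a6 lie at 8.16 or below; Slc32a1 had no counts and is not drawn.

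None of the 10 genes passed an adjusted p of 0.05 between the genotypes in DESeq2. Of the 17797 genes given an adjusted p, 389 passed, which is 2.19%. The 6 of the 10 with an adjusted p had a median log2 fold change of -0.065, against -0.0061 over all genes with one, and 2 of the 6 were positive. Grm4, Gad2 and Slc17a6 were too low to be given an adjusted p, and Slc32a1 did not enter the fit. At an unadjusted p under 0.05, which 9.03% of all genes reached in DESeq2, 1 of the 10 passed. It was Gad1, which was also the only 1 of the 10 to do so in edgeR's quasi-likelihood test (9.48% of all genes), where 0 passed at an adjusted p under 0.05.

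Gad1 (ENSMUSG00000070880, chromosome 2, 70553072 to 70602014, plus strand) was at 14176, 12937 and 12471 normalized counts in the control libraries and 16058, 14984 and 14944 in the knockout libraries. Each knockout was above every control, a separation in this direction that 9.42% of the 15811 genes with a mean of 50 or more also showed (18.0% in either direction). The means were 13194 ± 881 and 15328 ± 632 (SD, n = 3 each), a 1.16-fold difference with a 95% interval of 1.05-fold to 1.29-fold. This missed the threshold (DESeq2 adjusted p = 0.126; edgeR adjusted p = 0.356). Without control replicate 1, the highest control, it passed (log2 fold change 0.27, DESeq2 adjusted p = 0.0134), and over 12 alternatives the adjusted p ran from 0.0134 to 0.672.

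Because beta cells are its known islet source, Gad1 was also set against the mean of 9 beta-cell markers within each library. On the log2 scale the difference was -4.40, -4.58 and -4.72 in the controls and -4.24, -4.36 and -4.24 in the knockouts. Gad1 lay closer to the markers in each knockout than in any control, by 0.29 on average. An exact two-sided permutation test gave p = 0.1, the smallest that 3 against 3 libraries allow (0.167 after adjustment over 5 such comparisons). Of the 9 markers 1 passed: Nkx6-1, a beta-cell transcription factor gene, fell (log2 fold change -0.23 ± 0.07 SE, DESeq2 adjusted p = 0.0314). It passed in 6 of 12 alternatives and not in edgeR (adjusted p = 0.361). The log2 fold changes of the 9 markers had a median of -0.056, 4 of them were positive, and they ran from -0.31 for Mafa to 0.16 for Iapp. Mafa, Nkx6-1 and Slc2a2 were lower in every knockout than in any control, against 8.54% of all genes with a mean of 50 or more. All 3 are part of the mean that Gad1 was set against.

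Gad2 (ENSMUSG00000026787, chromosome 2, 22622205 to 22693874, plus strand), the gene of the other decarboxylase, was close to absent. Its deposited counts were 16, 18 and 14 in the controls and 16, 16 and 6 in the knockouts, so that only knockout replicate 3 lay below every control. The sums of 48 and 38 have exact 95% Poisson intervals of 30.8 to 71.4 and 22.9 to 59.3, which overlap and cover counting error only. The fitted log2 fold change was -0.35 ± 0.72 SE, with a 95% interval of -1.76 to 1.06, and it was -0.02 without knockout replicate 3 and -0.60 without knockout replicate 2. Against Gad1 within each library, Gad2 stood at -9.72, -9.47 and -9.62 in the controls and at -9.96, -9.74 and -11.06 in the knockouts on the log2 scale (exact permutation p = 0.1; 0.167 adjusted). The mean difference of -0.65 became -0.25 without knockout replicate 3, which had 6 Gad2 counts.

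The vesicular transporter genes were the lowest of the 10. Slc17a6 (ENSMUSG00000030500, chromosome 7, 51622006 to 51671119, plus strand) had 2, 2 and 4 counts in the controls and 6, 4 and 14 in the knockouts. The sums of 8 and 24 have exact 95% Poisson intervals of 2.18 to 20.5 and 12.4 to 41.9, which overlap. The fitted log2 fold change was 1.55 ± 1.19 SE, with a 95% interval of -0.78 to 3.89, and it was 0.86 without knockout replicate 3. Slc32a1 (ENSMUSG00000037771, chromosome 2, 158610767 to 158615748, plus strand) had 0 counts in all 6 libraries, which allows a level of at most 0.0544 to 0.0592 CPM, the library-scaled count, depending on the library. An antisense gene, Gm14205, covers 24.9% of the Slc32a1 exons and had no counts either.

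Glutamate loading into secretory vesicles is known from alpha cells, so Slc17a6 was compared with the mean of 7 alpha-cell markers. On the log2 scale it stood at -12.70, -13.02 and -11.92 in the controls and at -11.34, -11.80 and -10.21 in the knockouts (exact permutation p = 0.1; 0.167 adjusted). The groups did not overlap on this scale, but the values rest on 2 to 14 Slc17a6 counts a library. Their size depends on the pseudocount: the mean difference was 1.43 with the pseudocount of 1 used here and 0.73 with a pseudocount of 10. The normalized counts of Slc17a6 alone overlapped, with 4.243 in control replicate 3 and 4.125 in knockout replicate 2. Gcg, Ttr and Irx1 were lower in every knockout than in any control, against 8.54% of all genes with a mean of 50 or more. All 3 are part of the mean that Slc17a6 was set against. Of the alpha-cell markers 3 of 7 fell in DESeq2: Gcg (log2 fold change -0.56 ± 0.13 SE, adjusted p = 0.00332), Ttr (-0.57 ± 0.14 SE, 0.00535) and Irx2 (-0.45 ± 0.13 SE, 0.0382). Of all genes with an adjusted p, 0.657% fell. The log2 fold changes of the 7 markers had a median of -0.368. Of them 3 were positive: Gc (0.0025), Slc7a2 (0.035) and Pou3f4 (0.053). In edgeR 0 of the 7 passed, with 4 at an unadjusted p under 0.05, and the adjusted p of Gcg was 0.402. Gcg also lost the threshold in DESeq2 without knockout replicate 1 (adjusted p = 0.144) and without knockout replicate 3 (0.0826). Of 12 alternatives Gcg passed in 9, Ttr in 7 and Irx2 in 6.

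The genes whose pattern over the 6 libraries was most like that of Slc17a6, of 15811 compared, were Scnn1a (Pearson r = 0.999), Aldh3a2 (0.991), Vcam1 (0.989), Atad2 (0.988) and Snx10 (0.987). With so few Slc17a6 counts this list only describes these libraries. The other vesicular glutamate transporter genes were low as well. Slc17a7 had 0, 0 and 0 counts in the controls and 6, 4 and 4 in the knockouts, and Slc17a8 had 8, 6 and 12 and 20, 18 and 9.

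Gria2 and Gria3 made up nearly all AMPA receptor subunit transcript. Per kilobase, Gria2 took 45.0% to 59.5% and Gria3 38.6% to 52.0% of the 4 AMPA genes across the 6 libraries. The Gria2 subunit makes AMPA channels largely impermeable to calcium. Gria2 (ENSMUSG00000033981, chromosome 3, 80681450 to 80802835, minus strand) was at 8596, 9786 and 5072 normalized counts in the controls and 6540, 7590 and 5350 in the knockouts. The groups overlapped, and control replicate 3 was the lowest library of all. The log2 fold change of -0.27 ± 0.30 SE did not pass (DESeq2 adjusted p = 0.844), and its 95% interval ran from 0.554-fold to 1.25-fold. Without control replicate 3 it passed, at -0.50 (adjusted p = 0.00713), and over 12 alternatives the DESeq2 or edgeR adjusted p ran from 0.00713 to 0.999.

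Gria3 (ENSMUSG00000001986, chromosome X, 41400854 to 41678601, plus strand) is X-linked, in libraries whose sex-linked transcripts followed the genotype. It was at 3535, 4448 and 3349 normalized counts in the controls and 3170, 3215 and 3926 in the knockouts. Knockout replicates 1 and 2 lay below every control and knockout replicate 3 lay within the control range. The log2 fold change was -0.14 ± 0.13 SE (DESeq2 adjusted p = 0.799; 95% interval 0.765-fold to 1.08-fold). Leaving out single libraries moved it from -0.24 without knockout replicate 3 to -0.0024 without control replicate 2. Gria3 relative to Gria2 differed by 0.10 on the log2 scale between the genotypes, less than the SD within either group (0.36 and 0.41; exact permutation p = 0.6).

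Among AMPA receptor partners, Cacng4 and Cacng7, which encode transmembrane regulatory proteins, were highest at 658 and 214 normalized counts per kilobase. Cacng4 was at 1950, 2390 and 2181 normalized counts in the controls and 2563, 2696 and 2329 in the knockouts. Only knockout replicate 3 lay inside the control range (log2 fold change 0.22 ± 0.11 SE, DESeq2 adjusted p = 0.392). Of the 10 further AMPA subunits and partners 6 were given an adjusted p, and none passed.

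Kainate receptor transcript came almost wholly from Grik5, whose product forms channels only with a Grik1, Grik2 or Grik3 subunit. Grik5 took 94.1% to 95.6% of the 5 kainate subunit genes per kilobase and stood at 1472 normalized counts per kilobase. Grik2 (ENSMUSG00000056073, chromosome 10, 49094833 to 49788766, minus strand) was at 253, 217 and 228 normalized counts in the controls and 205, 239 and 214 in the knockouts. The groups overlapped (log2 fold change -0.09 ± 0.19 SE, DESeq2 adjusted p = 0.948; 95% interval 0.729-fold to 1.22-fold). Per kilobase Grik2, at 17.1, was below Grik3 at 30.5 and Grik4 at 31.7. Neto2, an auxiliary subunit gene, was at 33.6 normalized counts per kilobase. Of the 6 further kainate receptor genes 4 were given an adjusted p, and none passed.

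Grm4 (ENSMUSG00000063239, chromosome 17, 27422387 to 27521403, minus strand) encodes mGluR4, a receptor that lowers cyclic AMP through Gi proteins. It had 14, 8 and 46 counts in the controls and 10, 8 and 14 in the knockouts. Control replicate 3 alone was high, and the other 5 libraries lay between 8 and 14 counts. The fitted log2 fold change was -1.15 ± 0.82 SE (95% interval -2.76 to 0.47), and it was -0.03 without control replicate 3. Grm7, another metabotropic receptor gene, was at 11.8 normalized counts per kilobase. Of the 7 other Grm genes only 2 were given an adjusted p, and none passed.

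NMDA receptor transcript was led by the obligatory subunit gene Grin1 at 812 and by Grin2c at 392 normalized counts per kilobase. Among the 4 GluN2 genes, Grin2c took 89.7% to 92.9% per kilobase across the libraries. Grin1 was at 8162 ± 995 normalized counts in the control libraries and 7588 ± 465 in the knockout libraries (SD, n = 3 each). An antisense gene covers 13.5% of its exons. Of the 9 NMDA and delta receptor genes 6 were given an adjusted p, and none passed.

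**Figure D2:**
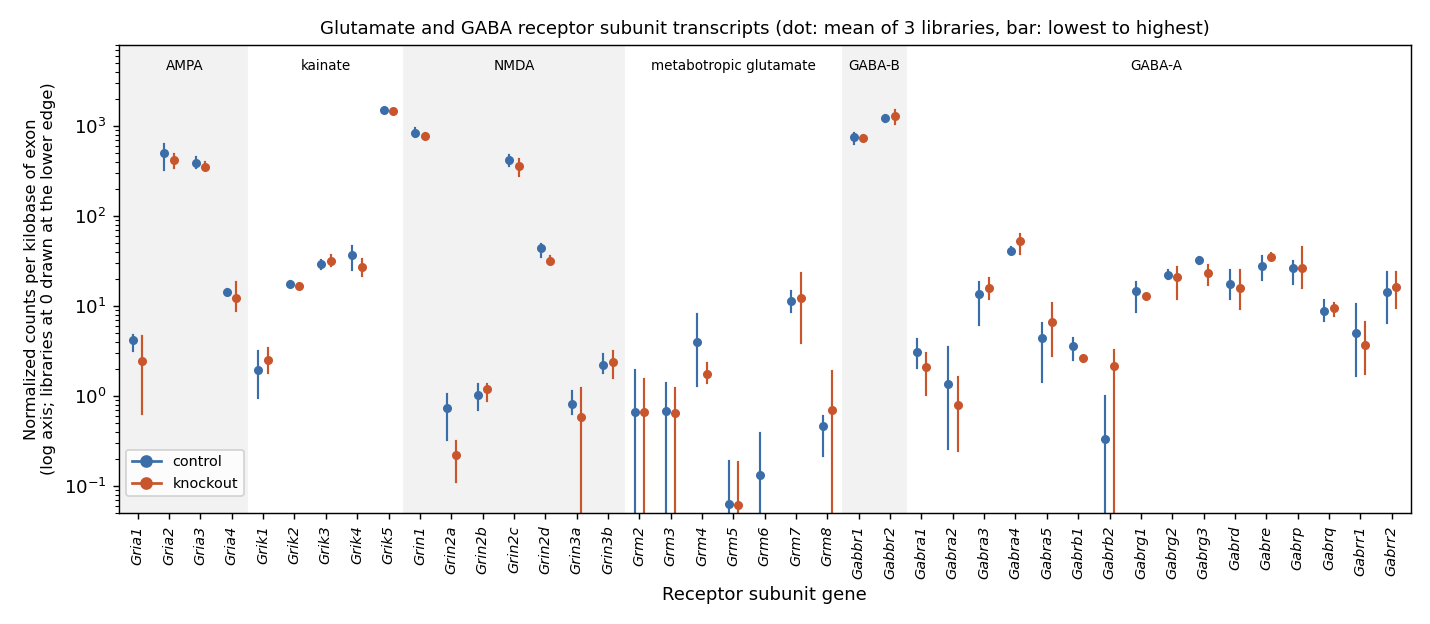
Normalized counts per kilobase of exon (log axis) of glutamate and GABA receptor subunit genes by receptor class, with dots for the mean of 3 control (blue) or 3 knockout (orange) libraries and bars from the lowest to the highest library. Not every subunit gene is drawn; of those drawn, Grik5 and Gabbr2 have the highest means over all libraries (1472 and 1261), and the GABA-A subunits have group means of 52.9 or less.

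Both GABA-B subunit genes were abundant, and neither passed. Gabbr1 (ENSMUSG00000024462, chromosome 17, 37045966 to 37075067, plus strand), whose product binds GABA, was at 6228, 6551 and 4877 normalized counts in the controls and 5499, 5411 and 6214 in the knockouts. All 3 knockouts lay within the control range (log2 fold change -0.04 ± 0.12 SE, DESeq2 adjusted p = 0.959; 95% interval 0.828-fold to 1.14-fold). Gabbr2 (ENSMUSG00000039809, chromosome 4, 46662305 to 46991873, minus strand), whose product couples to the G protein, was at 7417, 8448 and 8951 normalized counts in the controls and 8707, 6973 and 10078 in the knockouts. The lowest and the highest library were both knockouts (log2 fold change 0.05 ± 0.13 SE, DESeq2 adjusted p = 0.953; 95% interval 0.873-fold to 1.23-fold). The log2 ratio of Gabbr2 to Gabbr1 was 0.25, 0.37 and 0.88 in the controls and 0.66, 0.37 and 0.70 in the knockouts, with overlapping groups (exact permutation p = 0.9).

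The KCTD proteins bind the GABA-B receptor as auxiliary subunits. Kctd12b, which is X-linked, and Kctd12 stood highest at 1960 and 1182 normalized counts per kilobase, and a long non-coding gene on the other strand, with a mean of 51.8 counts, covers 62.8% of the Kctd12 exons. Kctd8 was at 639, 570 and 724 normalized counts in the controls and 563, 450 and 423 in the knockouts. Its groups did not overlap, as was true in the lower direction of 8.54% of all genes with a mean of 50 or more, and it missed the threshold (log2 fold change -0.43 ± 0.16 SE, DESeq2 adjusted p = 0.173). None of the 4 KCTD genes passed.

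The alpha and gamma subunit genes of the GABA-A channel were measured at low levels. Gabra4 led the alpha subunits at 46.7 normalized counts per kilobase. Gabrg3, a gamma subunit gene, was at 413, 384 and 350 normalized counts in the controls and 204, 340 and 282 in the knockouts. Its groups did not overlap, but it did not pass (log2 fold change -0.47 ± 0.21 SE, DESeq2 adjusted p = 0.308). In the lower direction 8.54% of all genes with a mean of 50 or more did not overlap. Gabra6 and Gabrr3 had no counts. Of the 19 genes 12 were given an adjusted p, and none passed.

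In the wider pathway few genes passed the threshold. Of 81 further glutamate and GABA genes in 9 lists, 53 were given an adjusted p in DESeq2. Of these 1 rose, Gls2, against 1.53% of all genes, and 1 fell, against 0.657%. The median log2 fold change of the 53 was -0.009, and 25 were positive. In edgeR 0 passed at an adjusted p under 0.05, where 0.115% of all genes did, with 11 of the 75 genes in the fit at an unadjusted p under 0.05, against 9.48% of all genes. In DESeq2 13 of the 75 reached that p, against 9.03% of all genes. The groups did not overlap in 6 of the 43 pathway genes with a mean of 50 or more, against 18.0% of all such genes.

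Gls2 (chromosome 10, 128194457 to 128210004, plus strand), the liver-type glutaminase, which releases glutamate from glutamine, rose. It was at 119, 143 and 125 normalized counts in the controls and 571, 390 and 272 in the knockouts. The difference was 3.18-fold, with a 95% interval of 2.21-fold to 4.58-fold (DESeq2 adjusted p = 2.55e-07). It passed in 11 of 12 alternatives and not in edgeR (adjusted p = 0.0848). In the knockouts Gls2 was at 118 normalized counts per kilobase.

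Transcripts of other tissues differed between the libraries as well. The summed level of 8 hepatocyte genes was 416 to 628 normalized counts in the controls and 86895, 3493 and 444 in the knockouts. Among the knockouts Gls2 followed the same order, highest in replicate 1 and lowest in replicate 3. In knockout replicate 3 the sum lay inside the control range and Gls2 was at 272. Without knockout replicate 1 the Gls2 log2 fold change was 1.36 (DESeq2 adjusted p = 0.000127), against 1.67 with all libraries. The sum of 4 acinar genes was 281284 to 588798 in the controls and 738097 to 1050477 in the knockouts, with 0 of 4 past the threshold in DESeq2 or edgeR and 4 of 4 at an unadjusted p under 0.05 in each. Of 6 mesenchymal markers 5 rose in DESeq2 and 3 passed in edgeR, with sums of 49335 to 64535 and 93800 to 100527. The part of hepatocyte, acinar and mesenchymal transcripts in the Gls2 and Gad1 values was not tested.

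Glul, Glud1 and Abat, enzyme genes of glutamate and GABA metabolism, were abundant and did not pass. Glul, glutamine synthetase, which turns glutamate into glutamine, stood at 14653 normalized counts per kilobase, the highest of all glutamate and GABA genes examined. It was at 47607, 46395 and 42350 normalized counts in the controls and 52834, 46251 and 56714 in the knockouts (DESeq2 adjusted p = 0.371). Glud1, glutamate dehydrogenase, followed at 3406 normalized counts per kilobase. Abat, the GABA transaminase that breaks GABA down, was at 17523, 17649 and 19337 normalized counts in the controls and 17395, 16647 and 16101 in the knockouts. Its groups did not overlap (log2 fold change -0.12 ± 0.07 SE, DESeq2 adjusted p = 0.572). In the lower direction this was true of 8.54% of all genes with a mean of 50 or more.

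**Figure D3:**
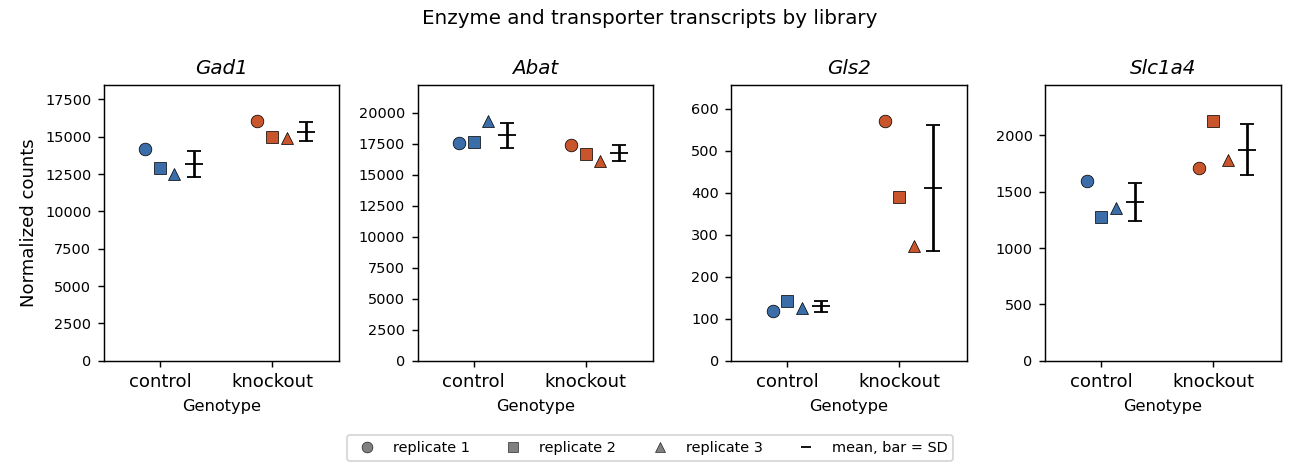
Normalized counts of Gad1, Abat, Gls2 and the neutral amino acid transporter gene Slc1a4 in 3 control (blue) and 3 knockout (orange) islet libraries, with symbols for replicates and the group mean with SD beside them, on axes that start at 0. The groups do not overlap in any of the 4 genes, with Abat lower and the other genes higher in the knockouts. Such a separation in either direction was shown by 18.0% of all genes with a mean of 50 or more, and by 6 of the 43 pathway genes at that level.

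Plasma membrane transporters that clear glutamate or GABA were scarce. Slc1a1, Slc1a2 and Slc1a3 reached at most 125 normalized counts in a library. The neutral amino acid transporter genes Slc1a4 and Slc1a5 of the same family were highest, at 418 and 219 normalized counts per kilobase. Slc1a4 was at 1597, 1272 and 1354 normalized counts in the controls and 1710, 2128 and 1778 in the knockouts, with no overlap. In the higher direction this was true of 9.42% of all genes with a mean of 50 or more. The Slc1a4 log2 fold change of 0.41 ± 0.13 SE missed the threshold (DESeq2 adjusted p = 0.0513). It passed in 4 of 12 alternatives, with an adjusted p from 0.00996 to 0.327. Slc6a13, the gene of the GABA transporter GAT2, had 2, 4 and 6 counts in the controls and 68, 8 and 12 in the knockouts. Its high value was in knockout replicate 1, which also had the highest hepatocyte sum. Knockout replicates 2 and 3, with 8 and 12 counts, were above every control as well. The source of the Slc6a13 counts was not tested.

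Subunits of the volume-regulated anion channel, through which beta cells can release GABA, were led by Lrrc8d at 666 and Lrrc8c at 437 normalized counts per kilobase. Lrrc8a, the subunit the channel cannot do without, was at 1269 ± 85.2 normalized counts in the control libraries and 1329 ± 90.1 in the knockout libraries (SD, n = 3 each). A protein-coding gene on the same strand, Gm28035, covers 66.2% of the Lrrc8a exons and had no counts. How shared reads were assigned is not given in the sources used here. The Lrrc8a level, and its place below Lrrc8d and Lrrc8c, are therefore uncertain. None of the 5 Lrrc8 genes passed with all 6 libraries. Lrrc8c did so without control replicate 3 (DESeq2 adjusted p = 0.0387).

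**Figure D4:**
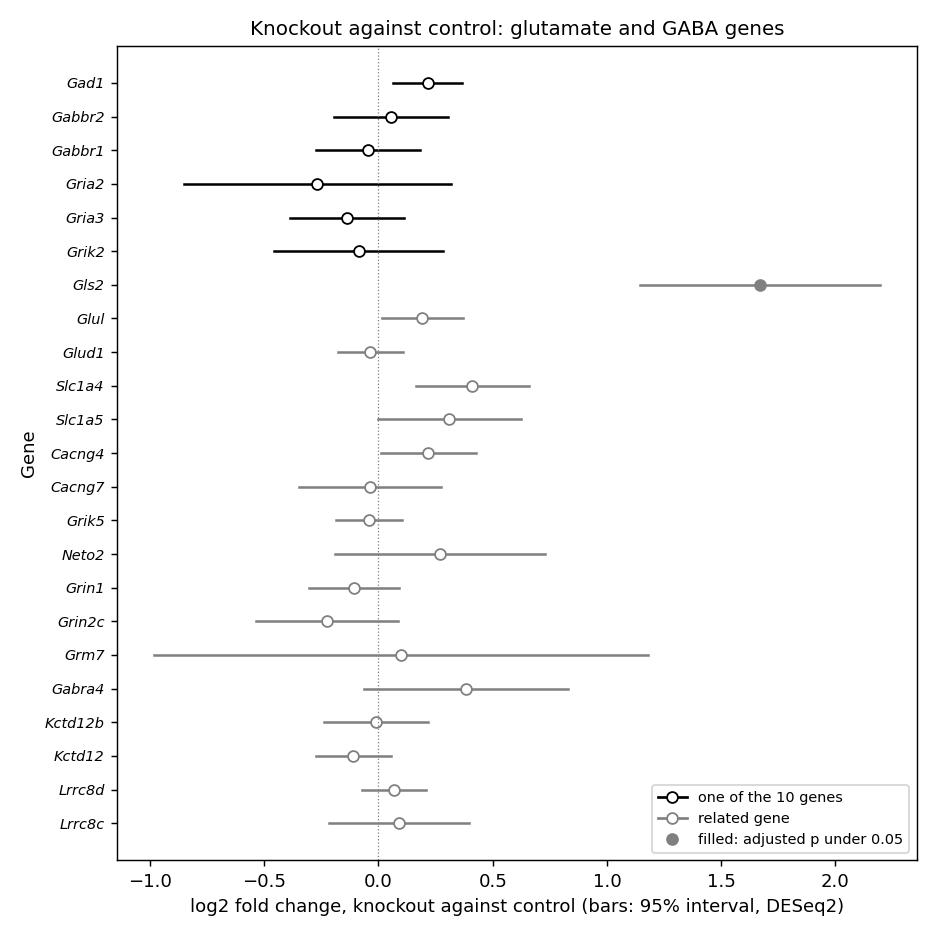
Log2 fold change of knockout against control with its 95% interval (DESeq2) for the 6 of the 10 genes with an adjusted p (black) and for related genes (grey), filled where the adjusted p is under 0.05. Gls2 lies at 1.67 and is filled, and every other symbol is open.

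Markers of nerve tissue, where many of these receptors are also expressed, were present. The summed level of 6 neuronal markers was 7100 to 9057 normalized counts in the controls and 6179 to 7346 in the knockouts, and 0 of the 6 passed in DESeq2 or edgeR (1 at an unadjusted p under 0.05 in each). Of 5 Schwann and glial markers 0 passed in either, nor at an unadjusted p under 0.05, with sums of 3852 to 5088 and 3619 to 4164. The part of nerve tissue in the receptor levels was not tested.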

How the data were processed

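The deposited table holds counts of reads per gene, not normalized, made by the authors for 6 islet libraries. Per the submitters' processing notes, STAR, featureCounts and the build mm10 were used; the strand setting is not given in the sources used here, so genes that overlap on opposite strands are uncertain. All 55536 identifiers match GENCODE M21 (GRCm38), which gave coordinates and exon lengths. Of counts from 1 to 20, 84.3% to 87.3% were even, against 53.0% to 54.7% of those over 1000, so Poisson intervals and the limit set by 0 counts (3 pairs, 6 counts) were taken on halved counts.

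DESeq2 1.42.0 in R 4.3.3, named without batch correction in the series' design, was fitted to all genes with at least 10 counts in total, with a single genotype term. Calls used a Benjamini-Hochberg adjustment over all genes and 0.05. Normalized counts are counts divided by median-of-ratios size factors. Differences within a library used log2(normalized count + 1) and exact two-sided permutation tests. Alternatives were edgeR 4.0.16 with TMM, TMM factors in DESeq2, other filters and thresholds, another pseudocount, the replicate number as a block and each library left out; halved counts were added after the data were seen. The 12 alternatives counted beside single genes leave out the block and the looser threshold. The fits were tested on simulated data.

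The 10 genes and all lists were chosen with earlier results of these data known, and the hepatocyte list after the values were seen. Named by rule are the 10 genes, Klf4, Gcg, every listed pathway gene past the threshold, the 2 highest per pathway list and the 5 genes most like Slc17a6; other genes were named after their values were seen. Some genes that these rules would name are not reported here. Replicate pairs differed by chi-square statistics of 40 to 120 times their degrees of freedom, so none was counted as a duplicate. The labels do not say that libraries came from separate animals, so p-values measure the spread between these samples.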

Additional observations from a re-analysis of the deposited data

How the results depend on the processing

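The number of all genes past the threshold was 389 in DESeq2 (272 higher, 117 lower), 29 in edgeR (24 higher, 5 lower), 614 at an adjusted p of 0.1, and 153 to 952 when each library was left out (153 without knockout replicate 1, 952 without control replicate 3). Of the 10 genes, 0 passed under the alternatives that keep all 6 libraries, and 0 to 1 when a library was left out (Gad1 without control replicate 1, Gria2 without control replicate 3). Of the 81 pathway genes, 2 passed in DESeq2, 0 in edgeR and 1 to 3 with a library left out. With libraries left out, the difference of Gabbr2 relative to Gabbr1 ran from -0.046 to 0.27 and that of Gria3 relative to Gria2 from -0.14 to 0.30. The log2 fold changes of Gabbr1 (-0.16 to 0.040) and Gabbr2 (-0.078 to 0.18) changed sign likewise. The cause was not tested.

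Same-numbered libraries did not deviate together (correlations -0.048, -0.059 and 0.011 over 15811 genes), so the numbers were not taken as pairs. A fit with the replicate block called 405 genes, 0 of the 10 and 2 pathway genes, and gave a Gad1 log2 fold change of 0.22 in DESeq2. For 14 single genes followed under the alternatives, 150 of 167 results stayed as reported; 7 lost the threshold, 7 gained it and 3 reversed. Depth limits Grm4, Gad2, Slc17a6 and Slc32a1, which had 46 counts or fewer in each library.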
